A study of Oryza sativa with 12 samples.

Results

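Heat shock proteins and heat shock factors were examined by RNA sequencing in rice leaves (Oryza sativa, of the indica variety Pusa Basmati-1). The set held the 59 of 38978 annotated genes whose deposited gene name contains HSP or HSF in any letter case. By name they were 24 heat shock factors, 13 small HSPs, 1 HSP40, 11 HSP70, 6 HSP90, 1 HSP100 and 3 genes (OsHsp74.8, OsHsp58.7 and OsHSP50.2) named by a protein mass. The study addressed OsPIP2-7 and OsPIP2-1, plasma membrane aquaporins, with 2 libraries in each of 6 groups. The groups were PIP2-7 OE, PIP2-7 KO and the WT serving as control for OsPIP2-7, and PIP2-1 OE, PIP2-1 KO and the WT serving as control for OsPIP2-1. In OE plants the ZmUbiquitin promoter, a promoter active in most tissues, drove 3xFLAG-OsPIP2-7 or 3xMyc-OsPIP2-1, which carry short peptide tags; KO plants were CRISPR-Cas9 knockouts free of T-DNA, and the labels do not say how many independent lines a group holds. The transgenic plants had been regenerated from tissue culture before they were moved to soil. All plants were grown at 24 °C with 16 h of light and 8 h of dark, and vegetative leaves were taken 2.5 months after transfer to the greenhouse. No group was given a heat treatment per the labels, so the values are levels in unheated leaves.

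Heat shock factors are transcription factors that bind heat shock elements in promoters. Class A factors activate chaperone genes, and class B factors lack that activation domain and in Arabidopsis often act as repressors. Among the chaperones, small HSPs hold unfolding proteins, HSP70 proteins refold them with HSP40 (J protein) partners, HSP90 proteins mature kinases and receptors, and HSP100 proteins such as HSP101 pull aggregates apart and are needed for acquired thermotolerance. Several members are also present without heat, among them the cytosolic HSP70 and HSP90 proteins and the HSP70 of the chloroplast stroma.

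Library totals ran from 24636211 to 40666127 counts. The OsPIP2-7 gene had 1734 and 1632 CPM (counts scaled to library size with TMM factors) in PIP2-7 OE leaves, 161 and 156 CPM in PIP2-7 KO leaves and 691 and 695 CPM in PIP2-7 WT leaves. The OsPIP2-1 gene had 1932 and 1869 CPM in PIP2-1 OE leaves, 136 and 141 CPM in PIP2-1 KO leaves and 130.3 and 132 CPM in PIP2-1 WT leaves; a CRISPR edit need not change the transcript level, so this gene does not check the PIP2-1 KO label. The WT pairs, of 1 variety, tissue and age, were themselves unlike: 56.6% of genes differed between PIP2-7 WT and PIP2-1 WT at an adjusted p under 0.05. Each line was therefore also set against the other WT pair. The summed CPM of 13 leaf genes (RbcS, light-harvesting and PsbO genes) was 16599 to 16737 in PIP2-7 OE, 20998 to 21272 in PIP2-7 KO and 41002 to 41600.4 in PIP2-7 WT libraries. In the other experiment it was 32174 to 32620.4 in PIP2-1 OE, 62277 to 67061 in PIP2-1 KO and 19179 to 19816 in PIP2-1 WT libraries. Most of the 13 genes were, like the sum, highest in WT within the PIP2-7 experiment, but some went the other way. RbcS5 had means of 2447 CPM in PIP2-7 OE, 1618 CPM in PIP2-7 KO and 682 CPM in PIP2-7 WT leaves. CabE had 120, 102 and 81.5 CPM in the same order. The sum of 4 chlorophyll breakdown genes, markers of a senescing leaf, was 555 to 573 CPM in PIP2-7 OE, 422 to 424 CPM in PIP2-7 KO and 216 to 224 CPM in PIP2-7 WT libraries. It was 206 CPM in both PIP2-1 OE libraries, 221 to 227 CPM in PIP2-1 KO and 398 to 411 CPM in PIP2-1 WT libraries. NOL, 1 of the 4, went against the sum, with means of 36.1 CPM in PIP2-1 KO and 23.3 CPM in PIP2-1 WT leaves, while the others were lower in PIP2-1 KO. Markers of other tissues were low, with a sum of 2.93 to 10.6 CPM for 5 floral and meristem genes, 4.27 to 10.2 CPM for 3 root genes and 0.556 to 2.78 CPM for 2 secondary wall genes. In bulk leaf RNA, fewer cells of a type and less RNA per cell cannot be told apart, and the part of these marker shifts in the results that follow was not tested.

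In these unheated leaves the cytosolic HSP70 and HSP90 genes dominated the set. On the scale of CPM per kb of annotated exon, the mean level over the 12 libraries was highest for HSP70 (Os11g0703900) at 535. Next came OsHSP82 at 354, OsHsp90 (Os09g0482600) at 316 and OsHsp80.2 at 260.1, which are HSP90 genes, and then OsHsp70CP1, the HSP70 of the chloroplast stroma that rice needs for chloroplast development at high temperature, at 213. A read that fits several of these HSP90 genes was counted at each, so their separate levels and ranks are uncertain. The authors listed no test of OsHsp80.2 in any of their comparisons. The most abundant small HSP was Oshsp17.9B, at 85 CPM per kb, and the most abundant heat shock factor was HSFA2D, at 59.1 CPM per kb. Of the 59 members, 39 reached a group mean of 5 CPM, 20 did not, and 1 of those 20, an HSP70 gene (Os11g0187600), had no counts in any library.

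Summed over a class, HSP90 transcripts came to 2853 ± 36.5 CPM in PIP2-1 OE, 2176 ± 43.5 CPM in PIP2-1 KO and 2641 ± 31.2 CPM in PIP2-1 WT leaves (SD, n = 2 each). They came to 2291 ± 14.4 CPM in PIP2-7 OE, 2359 ± 8.64 CPM in PIP2-7 KO and 2533 ± 44.1 CPM in PIP2-7 WT leaves. The sum was thus above both WT pairs in PIP2-1 OE and below both in the other 3 lines, with no overlap of libraries. It rests mostly on related genes of chromosome 9, and a read that fits several of them enters the sum more than once. OsHSP82A of chromosome 8 did not follow the sum. Its log2 changes against the own WT were 0.09 in PIP2-7 OE, 0.80 in PIP2-7 KO, -0.35 in PIP2-1 OE and -0.69 in PIP2-1 KO. Classes were read from names, so the 3 genes named by mass, which may belong to the HSP90 family, are not in the HSP90 sum. Together they came to 374 CPM in PIP2-7 OE, 319 CPM in PIP2-7 KO and 549 CPM in PIP2-7 WT leaves. In the PIP2-1 experiment they came to 409 CPM in OE, 511 CPM in KO and 336 CPM in WT leaves. The sum of small HSPs was 181 ± 4.85 CPM in PIP2-7 OE, 195 ± 6.2 CPM in PIP2-7 KO and 163 ± 1.56 CPM in PIP2-7 WT leaves, and 142 ± 3.1 CPM in PIP2-1 OE, 146 ± 11.1 CPM in PIP2-1 KO and 165 ± 7.51 CPM in PIP2-1 WT leaves. OsHSP40, the J protein of the set, had 88.7 and 90.1 CPM in PIP2-7 OE leaves, 99.1 and 92.1 CPM in PIP2-7 KO leaves and 93 and 94.9 CPM in PIP2-7 WT leaves. In the other experiment it had 95.6 and 98.2 CPM in PIP2-1 OE leaves, 97.6 and 96 CPM in PIP2-1 KO leaves and 89.2 and 92.3 CPM in PIP2-1 WT leaves. None of the 4 comparisons of a line with its own WT called it, with log2 changes of -0.06, 0.03, 0.08 and 0.07 in PIP2-7 OE, PIP2-7 KO, PIP2-1 OE and PIP2-1 KO (lowest edgeR adjusted p = 0.115).

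After the filter on low counts 50 members were tested in the PIP2-7 experiment and 47 in the PIP2-1 experiment. A gene was called at an adjusted p under 0.05 in edgeR's quasi-likelihood test; whether the libraries of 1 group are from different plants is not given in the labels, so these p-values measure the spread between libraries alone, which may be technical. In PIP2-7 OE 21 of 50 members were higher and 18 lower than in PIP2-7 WT, where 67.1% of all genes tested were called, 33.4% of them higher and 33.7% lower. In PIP2-7 KO 19 were higher and 21 lower, beside 63.4% of all genes, 32.1% higher and 31.3% lower. In PIP2-1 OE 11 of 47 were higher and 8 lower than in PIP2-1 WT, beside 44.1% of all genes, 23.2% higher and 20.9% lower; the 11 fell to 6 without PIP2-1 WT replicate 2. In PIP2-1 KO 13 were higher and 24 lower, beside 62.4% of all genes, 30.5% higher and 31.9% lower. The median log2 change of the members tested was 0.13 in PIP2-7 OE, -0.08 in PIP2-7 KO, 0.03 in PIP2-1 OE and -0.22 in PIP2-1 KO, beside medians of all genes between -0.01 and 0.00.

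**Figure D1:**
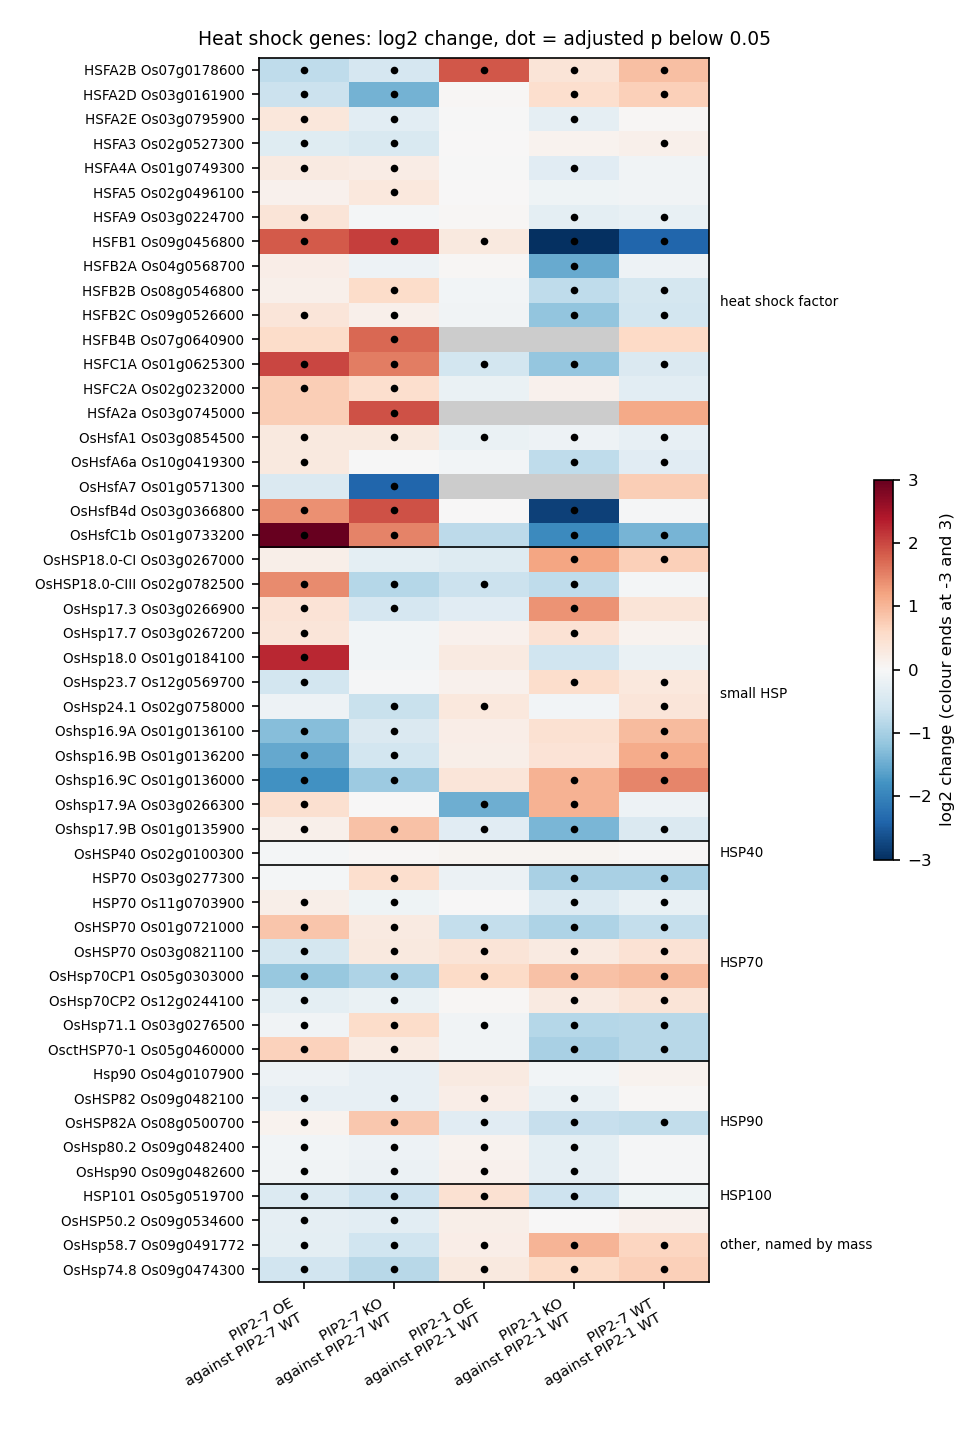
Log2 change of each tested heat shock member (rows, grouped by class) in 5 comparisons (columns); red is higher and blue lower in the group named first, a dot marks an adjusted p under 0.05, and grey marks members not tested. HSFB1 has the strongest blue in PIP2-1 KO (-3.26) and in PIP2-7 WT against PIP2-1 WT (-2.37), and the OsHSP40 row carries no dot.

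By number of calls against the own WT, the heat shock factors moved most often downward in PIP2-1 KO and most often upward in both PIP2-7 lines. Of 17 factors tested in PIP2-1 KO 12 were lower and 2 higher (1 without PIP2-1 KO replicate 2 or PIP2-1 WT replicate 2), with a median log2 change of -0.35. Of 20 tested in the PIP2-7 experiment 11 were higher and 3 lower in PIP2-7 OE (median 0.31), and 12 higher and 5 lower in PIP2-7 KO (median 0.26); the 5 became 3 without PIP2-7 KO replicate 1. In PIP2-1 OE 2 were higher (1 without either PIP2-1 OE library or PIP2-1 WT replicate 2) and 2 lower (1 without PIP2-1 OE replicate 2 or PIP2-1 WT replicate 1). The called share of the factors was 82.4% in PIP2-1 KO, 70% in PIP2-7 OE, 85% in PIP2-7 KO and 23.5% in PIP2-1 OE. Of all genes 62.4%, 67.1%, 63.4% and 44.1% were called in the same order. In PIP2-1 KO 31.9% of all genes were lower, and 33.4% and 32.1% were higher in PIP2-7 OE and PIP2-7 KO. PIP2-7 WT itself had 3 factors higher and 8 lower than PIP2-1 WT (median -0.14), beside 28.1% and 28.5% of all genes. The factors' directions against the own WT were therefore read beside the other WT pair. In PIP2-7 KO HSFC1A, HSfA2a, OsHsfB4d, HSFA5 and HSFB4B were higher against both pairs, and HSFA2D, HSFA2E and HSFA3 lower. The summed CPM of the factors did not rise in the PIP2-7 lines. It was 539 in PIP2-7 OE, 434 in PIP2-7 KO and 544 in PIP2-7 WT leaves. In the other experiment it was 504 in PIP2-1 OE, 476 in PIP2-1 KO and 506 in PIP2-1 WT leaves.

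The class B factors HSFB2A and HSFB2C had their lowest levels of the 12 libraries in PIP2-1 KO. HSFB2A (chromosome 4, 28574427 to 28575697 on IRGSP-1.0) had 8.95 and 9.45 CPM in PIP2-1 OE leaves, 2.87 and 3.47 CPM in PIP2-1 KO leaves and 8.56 and 9.18 CPM in PIP2-1 WT leaves. In the PIP2-7 experiment it had 8.33 and 9.92 CPM in PIP2-7 OE leaves, 7.45 and 7.03 CPM in PIP2-7 KO leaves and 8.15 and 8.0 CPM in PIP2-7 WT leaves. The 2 PIP2-1 KO libraries lay apart from the other 10, which held 7.03 to 9.92 CPM. Its log2 change in PIP2-1 KO was -1.52 ± 0.143 (SE, edgeR adjusted p = 1.60e-11) against PIP2-1 WT and -1.36 ± 0.142 (SE, edgeR adjusted p = 7.26e-12) against PIP2-7 WT. HSFB2C (chromosome 9, 20591252 to 20595143) had 39.8 and 38.2 CPM in PIP2-1 OE leaves, 19.5 and 17.7 CPM in PIP2-1 KO leaves and 40.2 and 42.5 CPM in PIP2-1 WT leaves, and 36.7 and 36.4 CPM in PIP2-7 OE leaves, 32.1 and 31.8 CPM in PIP2-7 KO leaves and 27.4 and 29.9 CPM in PIP2-7 WT leaves. PIP2-1 KO lay below all other libraries for this gene as well, and its log2 change was -1.17 ± 0.070 (SE, edgeR adjusted p = 6.69e-17) against PIP2-1 WT and -0.62 against PIP2-7 WT. HSFB2B fell by 0.77 on the log2 scale in PIP2-1 KO, with 4.29 and 3.7 CPM, against 7.62 and 6.03 CPM in PIP2-1 WT; against PIP2-7 WT, at 4.14 and 5.36 CPM, it was not called.

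HSFB1, whose Arabidopsis counterpart is a repressor of heat-induced HSF genes, gave the strongest fall among members above 5 CPM. It (chromosome 9, 17221479 to 17228923) had 10.1 and 10.8 CPM in PIP2-1 OE leaves, 0.947 and 0.81 CPM in PIP2-1 KO leaves and 9.12 and 7.81 CPM in PIP2-1 WT leaves. In the PIP2-7 experiment it had 5.99 and 5.78 CPM in PIP2-7 OE leaves, 7.42 and 6.38 CPM in PIP2-7 KO leaves and 1.44 and 1.83 CPM in PIP2-7 WT leaves. PIP2-1 KO and PIP2-7 WT were the low groups and all other groups lay at 5.78 CPM or more. The log2 change in PIP2-1 KO was -3.26 ± 0.188 (SE, edgeR adjusted p = 2.60e-17) against PIP2-1 WT, and -0.89 (edgeR adjusted p = 0.00322) against PIP2-7 WT, a call that was lost without PIP2-7 WT replicate 2 (-0.70). In PIP2-7 OE and PIP2-7 KO it rose by 1.85 and 2.07 against PIP2-7 WT, but it was lower than in PIP2-1 WT by -0.50 and -0.30; the last call was lost without PIP2-1 WT replicate 1 (-0.18) or PIP2-7 KO replicate 2 (-0.19). The WT pairs differed by -2.37 ± 0.162 (SE, edgeR adjusted p = 7.17e-19), PIP2-7 WT being lower. The rise in PIP2-1 OE, 0.30, was lost in DESeq2 and without either PIP2-1 OE library (0.35 without replicate 1, 0.26 without replicate 2) or PIP2-1 WT replicate 2 (0.18).

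**Figure D2:**
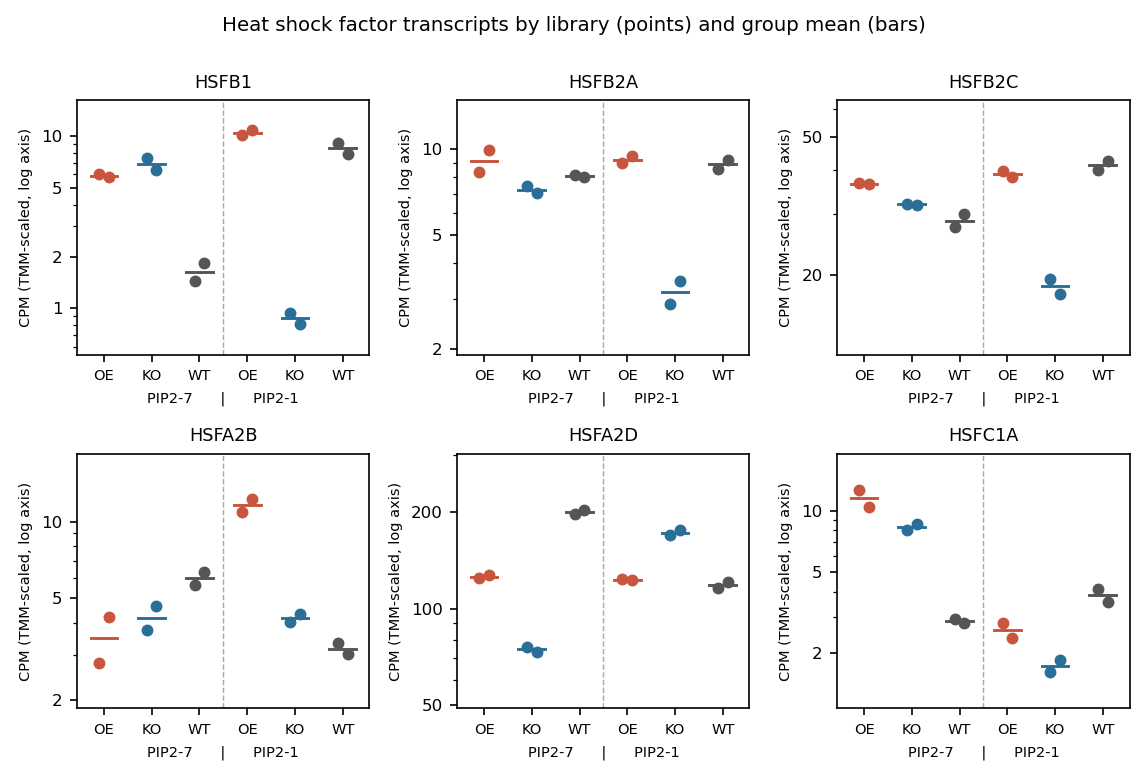
TMM-scaled CPM of 6 heat shock factors in each library (points) with the mean of each group (bars). HSFB2A is low only in PIP2-1 KO (2.87 and 3.47 CPM), HSFB1 is low in PIP2-1 KO and in PIP2-7 WT, HSFA2B is highest in PIP2-1 OE (10.9 and 12.3 CPM), HSFC1A is high in both PIP2-7 lines, and HSFA2D is lowest in PIP2-7 KO.

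Among the class A2 genes, whose Arabidopsis relative HSFA2 amplifies and prolongs the heat response, each line gave its own pattern. HSFA2B (chromosome 7, 4139160 to 4142436) had 10.9 and 12.3 CPM in PIP2-1 OE leaves, 4.04 and 4.36 CPM in PIP2-1 KO leaves and 3.34 and 3.03 CPM in PIP2-1 WT leaves. In the PIP2-7 experiment it had 2.79 and 4.22 CPM in PIP2-7 OE leaves, 3.75 and 4.66 CPM in PIP2-7 KO leaves and 5.65 and 6.35 CPM in PIP2-7 WT leaves. PIP2-1 OE lay above all other libraries, with a log2 change of 1.86 ± 0.136 (SE, edgeR adjusted p = 4.39e-14) against PIP2-1 WT and 0.96 against PIP2-7 WT. HSFA2B was also called higher in PIP2-1 KO (0.38), yet lower than PIP2-7 WT (-0.52, lost without PIP2-1 KO replicate 1, at -0.46, or PIP2-7 WT replicate 2, at -0.43). The rise against PIP2-1 WT was lost in DESeq2, in the fit of 12 libraries and without PIP2-1 KO replicate 2 (0.33) or PIP2-1 WT replicate 2 (0.30). In PIP2-7 OE it fell by 0.76 on the log2 scale against PIP2-7 WT and was not called against PIP2-1 WT.

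HSFA2D (chromosome 3, 3342254 to 3344547), the most abundant factor, had 124 and 127 CPM in PIP2-7 OE leaves, 76.2 and 73.5 CPM in PIP2-7 KO leaves and 196 and 202 CPM in PIP2-7 WT leaves, and 124 and 122 CPM in PIP2-1 OE leaves, 169 and 175 CPM in PIP2-1 KO leaves and 116 and 121 CPM in PIP2-1 WT leaves. PIP2-7 KO held the lowest 2 libraries and PIP2-7 WT the highest 2. The log2 change in PIP2-7 KO was -1.41 ± 0.0356 (SE, edgeR adjusted p = 2.39e-33) against PIP2-7 WT and -0.68 ± 0.0397 (SE, edgeR adjusted p = 2.12e-21) against PIP2-1 WT. In PIP2-7 OE HSFA2D fell by 0.65 on the log2 scale against PIP2-7 WT but was 0.09 higher than PIP2-1 WT, a call lost without PIP2-1 WT replicate 1 (0.06), PIP2-7 OE replicate 1 (0.10) or PIP2-7 OE replicate 2 (0.07). HSFA2E showed smaller differences that held in direction against both WT pairs: it had 78.6 and 78.7 CPM in PIP2-7 OE, 50.7 and 50.3 CPM in PIP2-7 KO and 62.4 and 63.3 CPM in PIP2-7 WT leaves. Its log2 change was 0.33 in PIP2-7 OE and -0.32 in PIP2-7 KO against PIP2-7 WT, and 0.38 and -0.28 against PIP2-1 WT. In PIP2-1 KO, at 49.8 and 53.2 CPM, it fell by 0.26 on the log2 scale against PIP2-1 WT.

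HSFC1A, a class C factor, was highest in both PIP2-7 lines. It (chromosome 1, 24967398 to 24969047) had 12.7 and 10.4 CPM in PIP2-7 OE leaves, 8.02 and 8.61 CPM in PIP2-7 KO leaves and 2.95 and 2.81 CPM in PIP2-7 WT leaves. In the PIP2-1 experiment it had 2.82 and 2.39 CPM in PIP2-1 OE leaves, 1.61 and 1.85 CPM in PIP2-1 KO leaves and 4.13 and 3.56 CPM in PIP2-1 WT leaves. All 4 libraries of the PIP2-7 lines exceeded the other 8, which held at most 4.13 CPM. Its log2 change against PIP2-7 WT was 2.01 ± 0.131 (SE, edgeR adjusted p = 6.49e-18) in PIP2-7 OE and 1.53 ± 0.138 (SE, edgeR adjusted p = 2.85e-13) in PIP2-7 KO; against PIP2-1 WT it was 1.61 and 1.11. In PIP2-1 KO it fell by 1.17 on the log2 scale against PIP2-1 WT and by 0.74 against PIP2-7 WT. The fall in PIP2-1 OE (-0.56) was lost in DESeq2 and without PIP2-1 OE replicate 2 (-0.44) or PIP2-1 WT replicate 1 (-0.45). Its low partner OsHsfC1b, named here after its values were seen, had 4.73 and 4.41 CPM in PIP2-7 OE, 1.44 and 1.35 CPM in PIP2-7 KO and 0.314 and 0.666 CPM in PIP2-7 WT leaves, a log2 change of 3.2 in PIP2-7 OE. That rise was 1.83 against PIP2-1 WT, at 1.35 and 1.25 CPM.

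The factors named for the master regulators of the heat response changed little. OsHsfA1, whose tomato and Arabidopsis relatives start the response, had 89.4 and 93 CPM in PIP2-7 OE, 91.5 and 91.7 CPM in PIP2-7 KO and 76.4 and 74.1 CPM in PIP2-7 WT leaves, log2 changes of 0.29 and 0.28. It had 77.5 and 75 CPM in PIP2-1 OE leaves, 79.4 and 81 CPM in PIP2-1 KO leaves and 87.4 and 87.7 CPM in PIP2-1 WT leaves, log2 changes of -0.21 and -0.15. None of these 4 differences was called against the other WT pair. Of 2 further class A genes named after their values were seen, OsHsfA6a had 26.9 and 27.2 CPM in PIP2-1 KO leaves, against 46.4 and 44 CPM in PIP2-1 WT and 35.3 and 36.4 CPM in PIP2-7 WT leaves, log2 changes of -0.76 and -0.41. HSFA3, which in Arabidopsis acts downstream of DREB2 factors, fell by 0.37 in PIP2-7 OE and by 0.47 in PIP2-7 KO on the log2 scale against PIP2-7 WT. Against PIP2-1 WT the falls were -0.18 and -0.30, the first lost without PIP2-7 OE replicate 1 (-0.16).

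Small HSP genes were called mostly higher in PIP2-1 KO and mostly lower in PIP2-7 KO. Of 12 tested, 6 were higher and 2 lower in PIP2-1 KO (median log2 change 0.45; 4 lower without PIP2-1 KO replicate 2). In PIP2-7 KO 1 was higher and 6 lower (median -0.35; 3 lower in DESeq2). In PIP2-7 OE 6 were higher and 4 lower, and in PIP2-1 OE 1 was higher and 3 lower. The called share of the small HSPs was 66.7% in PIP2-1 KO, 58.3% in PIP2-7 KO, 83.3% in PIP2-7 OE and 33.3% in PIP2-1 OE. Of all genes 62.4%, 63.4%, 67.1% and 44.1% were called in the same order. In PIP2-1 KO 30.5% of all genes were higher, and in PIP2-7 KO 31.3% were lower. PIP2-7 WT had 6 small HSPs higher and 1 lower than PIP2-1 WT, beside 28.1% and 28.5% of all genes. The summed CPM of the class went against these counts in both KO lines. It was 146 in PIP2-1 KO and 165 in PIP2-1 WT leaves, and 195 in PIP2-7 KO and 163 in PIP2-7 WT leaves. Oshsp17.9B, the most abundant small HSP, moved with the sum, with log2 changes of -1.36 in PIP2-1 KO and 0.87 in PIP2-7 KO.

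The 4 small HSP genes clustered on chromosome 3, 8805567 to 8838527, were all higher in PIP2-1 KO than in PIP2-1 WT. A read that fits several of them was counted at each, so they need not be 4 independent measurements. The authors' deposited values had the same direction. Oshsp17.9A (1.23) and OsHsp17.3 (1.29) were marked significant there, OsHSP18.0-CI (1.46) and OsHsp17.7 (0.44) were not. Oshsp17.9A (chromosome 3, 8805567 to 8806556) had 4.04 and 4.68 CPM in PIP2-1 OE leaves, 24.2 and 26.4 CPM in PIP2-1 KO leaves and 12.3 and 11.8 CPM in PIP2-1 WT leaves. In the PIP2-7 experiment it had 15.5 and 14.7 CPM in PIP2-7 OE leaves, 12.3 and 9.87 CPM in PIP2-7 KO leaves and 10.5 and 11.4 CPM in PIP2-7 WT leaves. The order PIP2-1 OE, PIP2-1 WT, PIP2-1 KO was free of overlap, and these OE and KO libraries were the lowest and the highest of all 12. The log2 change was 1.05 ± 0.0935 (SE, edgeR adjusted p = 3.99e-12) in PIP2-1 KO and -1.47 ± 0.113 (SE, edgeR adjusted p = 1.74e-13) in PIP2-1 OE against PIP2-1 WT. Against PIP2-7 WT it was 1.2 and -1.32. The neighbour OsHsp17.3 had 2.14 and 2.78 CPM in PIP2-1 OE leaves, 7.35 and 8.71 CPM in PIP2-1 KO leaves and 3.38 and 2.85 CPM in PIP2-1 WT leaves. It rose by 1.36 ± 0.165 (SE, edgeR adjusted p = 6.55e-09) in PIP2-1 KO, and by 0.97 against PIP2-7 WT, where the libraries held 4.27 and 3.91 CPM. In PIP2-7 OE its rise of 0.41 was lost in DESeq2 and without PIP2-7 OE replicate 2 (0.26) or PIP2-7 WT replicate 2 (0.34).

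The other genes of this cluster, OsHSP18.0-CI and OsHsp17.7, were named after their values were seen; CI in a name denotes the cytosolic class I small HSPs. OsHSP18.0-CI had 1.7 and 1.53 CPM in PIP2-1 OE leaves, 5.11 and 4.55 CPM in PIP2-1 KO leaves and 1.95 and 2.21 CPM in PIP2-1 WT leaves. Its log2 change in PIP2-1 KO was 1.19 ± 0.19 (SE, edgeR adjusted p = 1.44e-06) against PIP2-1 WT and 0.47 against PIP2-7 WT, a call lost in DESeq2 and without PIP2-1 KO replicate 1 (0.38), PIP2-7 WT replicate 1 (0.42) or PIP2-7 WT replicate 2 (0.51). OsHsp17.7 had 7.05 and 5.91 CPM in PIP2-1 OE leaves, 7.67 and 8.37 CPM in PIP2-1 KO leaves and 5.78 and 5.92 CPM in PIP2-1 WT leaves. It rose by 0.43 in PIP2-1 KO; against PIP2-7 WT the rise of 0.32 was lost in DESeq2 and without PIP2-1 KO replicate 2 (0.25) or PIP2-7 WT replicate 1 (0.21).

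**Figure D3:**
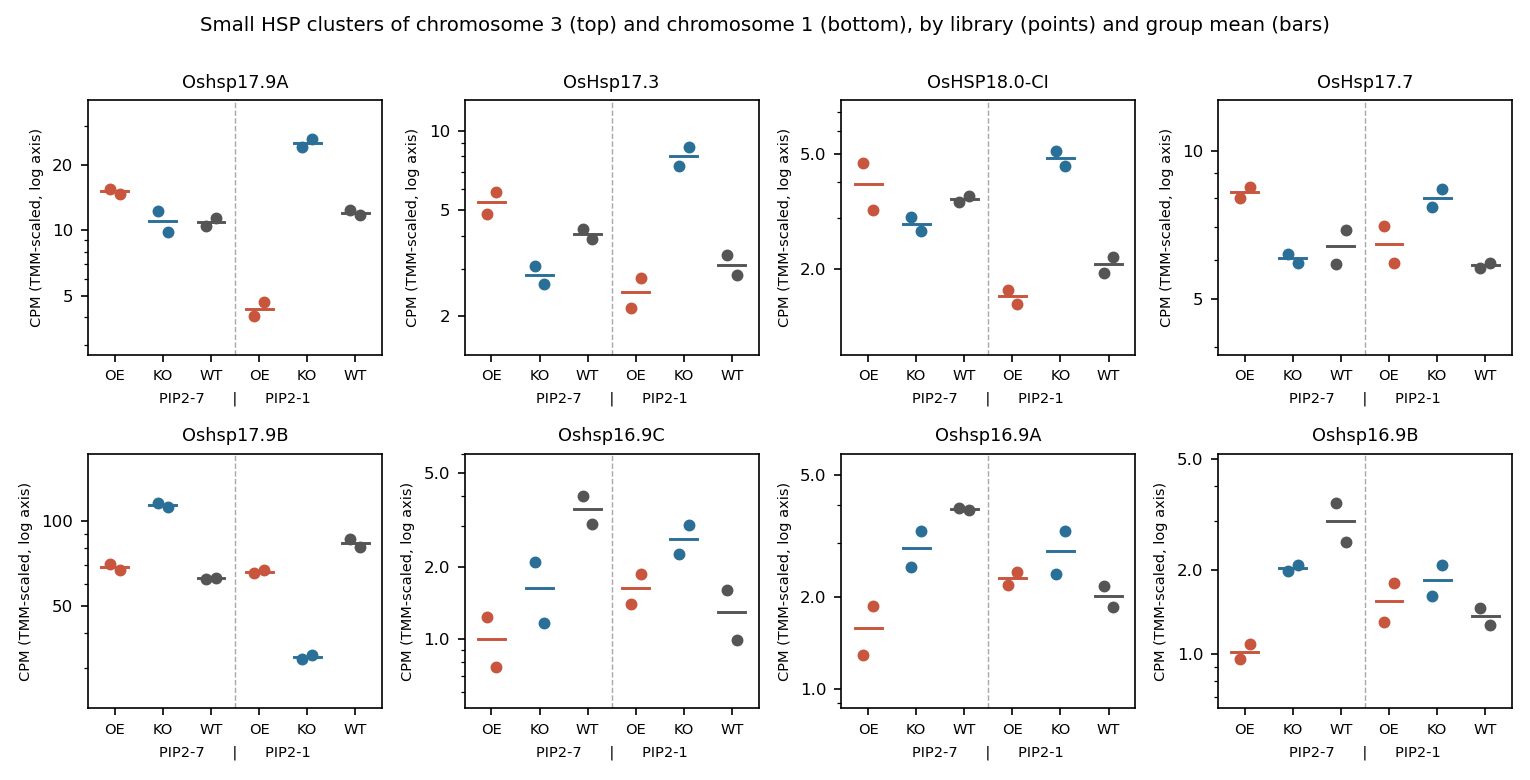
TMM-scaled CPM of the small HSP genes of chromosome 3 (top row) and chromosome 1 (bottom row) in each library (points) with group means (bars). The top row has its highest or near-highest bars in PIP2-1 KO; in the bottom row the 3 hsp16.9 genes are highest in PIP2-7 WT, and Oshsp17.9B is lowest in PIP2-1 KO (32.4 and 33.4 CPM) and highest in PIP2-7 KO (116 and 113 CPM).

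The small HSP genes clustered on chromosome 1, 1941012 to 1952681, did not move together. Oshsp17.9B (chromosome 1, 1941012 to 1941851) had 70.7 and 67.3 CPM in PIP2-7 OE leaves, 116 and 113 CPM in PIP2-7 KO leaves and 62.3 and 63 CPM in PIP2-7 WT leaves, and 65.3 and 67 CPM in PIP2-1 OE leaves, 32.4 and 33.4 CPM in PIP2-1 KO leaves and 86.4 and 80.8 CPM in PIP2-1 WT leaves. PIP2-7 KO held the 2 highest and PIP2-1 KO the 2 lowest of the 12 libraries. The log2 change was 0.87 ± 0.0399 (SE, edgeR adjusted p = 2.42e-23) in PIP2-7 KO and -1.36 ± 0.0547 (SE, edgeR adjusted p = 5.27e-22) in PIP2-1 KO against the own WT. Against the other WT pair it was 0.44 and -0.93. In PIP2-7 OE the direction turned with the WT pair, 0.15 against PIP2-7 WT and -0.26 against PIP2-1 WT, and the first was lost without PIP2-7 OE replicate 1 (0.11).

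Its neighbours Oshsp16.9A, Oshsp16.9B and Oshsp16.9C, named after their values were seen, are near-identical copies, so reads counted at each alignment make their separate levels uncertain. Oshsp16.9A had 1.29 and 1.87 CPM in PIP2-7 OE leaves, 2.51 and 3.28 CPM in PIP2-7 KO leaves and 3.92 and 3.85 CPM in PIP2-7 WT leaves, and 2.18 and 1.86 CPM in PIP2-1 WT leaves. The PIP2-7 WT libraries were the highest of the 12 for this gene. In PIP2-7 OE the log2 changes of Oshsp16.9A, Oshsp16.9B and Oshsp16.9C were -1.28, -1.54 and -1.81 against PIP2-7 WT, and none was called against PIP2-1 WT. PIP2-7 WT was itself higher than PIP2-1 WT by 0.94, 1.12 and 1.46.

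OsHSP18.0-CIII, named for the small HSP class III, was set apart in PIP2-7 OE. It (chromosome 2, 33179489 to 33180405) had 34.2 and 30.5 CPM in PIP2-7 OE leaves, 6.72 and 6.62 CPM in PIP2-7 KO leaves and 12.3 and 12 CPM in PIP2-7 WT leaves. In the PIP2-1 experiment it had 8.32 and 7.8 CPM in PIP2-1 OE leaves, 6.63 and 8.37 CPM in PIP2-1 KO leaves and 13.4 and 11.8 CPM in PIP2-1 WT leaves. Both PIP2-7 OE libraries held 30.5 CPM or more and the other 10 at 13.4 CPM or less. The log2 change in PIP2-7 OE was 1.42 ± 0.0773 (SE, edgeR adjusted p = 1.13e-20) against PIP2-7 WT and 1.38 ± 0.0884 (SE, edgeR adjusted p = 8.19e-20) against PIP2-1 WT. The other 3 lines lay below both WT pairs: against the own WT it fell by 0.86 in PIP2-7 KO, by 0.64 in PIP2-1 OE and by 0.77 in PIP2-1 KO on the log2 scale, and against the other WT pair by 0.92, 0.58 and 0.71. OsHsp18.0 on chromosome 1, named after its values were seen, was also high in PIP2-7 OE, with 4.7 and 3.96 CPM, against 1.1 and 0.724 CPM in PIP2-7 WT and 1.43 and 0.712 CPM in PIP2-1 WT leaves. Its log2 changes there were 2.26 and 2.1.

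Of the larger small HSPs, OsHsp24.1 had 17.6 and 16.1 CPM in PIP2-7 OE leaves, 11.7 and 12.2 CPM in PIP2-7 KO leaves and 18.7 and 19.2 CPM in PIP2-7 WT leaves. It fell by 0.66 on the log2 scale in PIP2-7 KO; against PIP2-1 WT, at 14.9 and 14 CPM, the fall of -0.29 was lost in DESeq2 and without PIP2-1 WT replicate 1 (-0.24), PIP2-7 KO replicate 1 (-0.25) or PIP2-7 KO replicate 2 (-0.31). OsHsp23.7 had 20.7 and 23.9 CPM in PIP2-7 OE, against 33.9 and 31.6 CPM in PIP2-7 WT leaves, and 36.3 and 38.5 CPM in PIP2-1 KO, against 25.7 and 25.8 CPM in PIP2-1 WT leaves. The log2 changes were -0.54 and 0.52. The rise in PIP2-1 KO was 0.19 against PIP2-7 WT, lost in DESeq2 and without PIP2-1 KO replicate 2 (0.14) or PIP2-7 WT replicate 2 (0.15).

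HSP101, the disaggregase, was higher in PIP2-1 OE and lower in the other 3 lines. It (chromosome 5, 25803609 to 25807160) had 19.7 and 16.7 CPM in PIP2-1 OE leaves, 7.13 and 10.7 CPM in PIP2-1 KO leaves and 12.8 and 13.6 CPM in PIP2-1 WT leaves. In the PIP2-7 experiment it had 10.2 and 7.94 CPM in PIP2-7 OE leaves, 7.56 and 8.26 CPM in PIP2-7 KO leaves and 12.2 and 12.3 CPM in PIP2-7 WT leaves. Both PIP2-1 OE libraries exceeded the other 10, which held at most 13.6 CPM. The log2 change in PIP2-1 OE was 0.45 ± 0.123 (SE, edgeR adjusted p = 0.00574) against PIP2-1 WT, lost without PIP2-1 WT replicate 1 (0.42), and 0.58 ± 0.126 (SE, edgeR adjusted p = 4.34e-04) against PIP2-7 WT. In PIP2-1 KO it fell by 0.61 against PIP2-1 WT, in PIP2-7 OE by 0.42 and in PIP2-7 KO by 0.63 against PIP2-7 WT, on the log2 scale. The fall in PIP2-7 OE was lost without PIP2-7 OE replicate 2 (-0.25). Against the other WT pair these falls were -0.48, -0.53 and -0.76, the first lost without PIP2-1 KO replicate 1 (-0.19), PIP2-7 WT replicate 1 (-0.49) or PIP2-7 WT replicate 2 (-0.46).

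Of the 4 HSP90 genes clustered on chromosome 9, 18514776 to 18541201, OsHSP82, OsHsp80.2 and OsHsp90 (Os09g0482600) moved by small amounts in 1 pattern, higher in PIP2-1 OE and lower in the other 3 lines. The fourth, OsHsp90 (Os09g0482550), held at most 12 counts in a library and was not tested. OsHSP82 (chromosome 9, 18514776 to 18518316) had 1031 and 1004 CPM in PIP2-1 OE leaves, 756 and 783 CPM in PIP2-1 KO leaves and 890.2 and 875 CPM in PIP2-1 WT leaves. In the PIP2-7 experiment it had 766 and 771 CPM in PIP2-7 OE leaves, 767 and 769 CPM in PIP2-7 KO leaves and 929 and 896 CPM in PIP2-7 WT leaves. PIP2-1 OE was highest, both WT pairs were intermediate and the other 3 lines lowest, with no overlap. The log2 change was 0.20 ± 0.0351 (SE, edgeR adjusted p = 1.77e-05) in PIP2-1 OE and -0.22 ± 0.0353 (SE, edgeR adjusted p = 1.80e-06) in PIP2-1 KO. It was -0.24 ± 0.0258 (SE, edgeR adjusted p = 6.19e-11) in PIP2-7 OE and -0.25 ± 0.0258 (SE, edgeR adjusted p = 1.92e-11) in PIP2-7 KO. Against the other WT pair the 4 values were 0.17, -0.24, -0.19 and -0.21, and the WT pairs did not differ at the threshold, with 929 and 896 CPM in PIP2-7 WT and 890.2 and 875 CPM in PIP2-1 WT leaves.

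OsHsp80.2 had log2 changes of 0.11 in PIP2-1 OE, -0.30 in PIP2-1 KO, -0.08 in PIP2-7 OE and -0.16 in PIP2-7 KO. For OsHsp90 (Os09g0482600) they were 0.13, -0.27, -0.12 and -0.18 in the same order. The call in PIP2-1 OE was lost without PIP2-1 WT replicate 2 for both (0.09 and 0.11), and for OsHsp80.2 also without PIP2-1 OE replicate 1 (0.11) or replicate 2 (0.12). A read that fits several of these 3 related genes was counted at each, so they are not independent measurements. OsHSP82A on chromosome 8, another HSP90 gene, did not share the pattern: it had 189 and 189 CPM in PIP2-7 OE leaves, 314 and 308 CPM in PIP2-7 KO leaves and 179 and 178 CPM in PIP2-7 WT leaves, and 237 and 231 CPM in PIP2-1 OE leaves, 184 and 187 CPM in PIP2-1 KO leaves and 299 and 293 CPM in PIP2-1 WT leaves. Its log2 change was 0.80 in PIP2-7 KO, -0.35 in PIP2-1 OE and -0.69 in PIP2-1 KO against the own WT. PIP2-7 WT was lower than PIP2-1 WT by -0.75, and neither KO line was called against the other WT pair. Both OE lines turned direction, PIP2-1 OE being called higher than PIP2-7 WT and PIP2-7 OE lower than PIP2-1 WT.

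**Figure D4:**
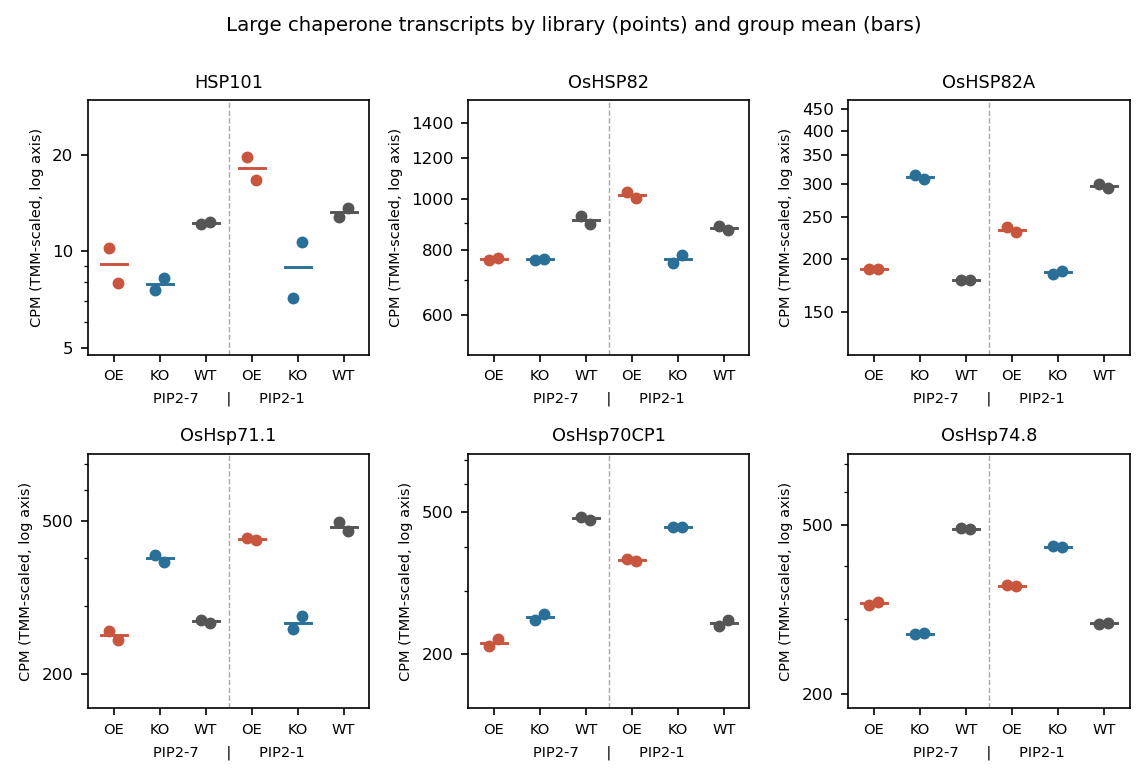
TMM-scaled CPM of 6 large chaperone genes in each library (points) with group means (bars). HSP101 and OsHSP82 have their highest bars in PIP2-1 OE; OsHsp70CP1 and OsHsp74.8 are high in PIP2-1 KO and PIP2-7 WT; OsHSP82A and OsHsp71.1 are lower in PIP2-7 WT than in PIP2-1 WT.

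Within HSP70, the leading cytosolic gene HSP70 (Os11g0703900) had 1383 and 1372 CPM in PIP2-7 OE leaves, 1121 and 1106 CPM in PIP2-7 KO leaves and 1228 and 1216 CPM in PIP2-7 WT leaves, and 1434 and 1422 CPM in PIP2-1 OE leaves, 1070.1 and 1091 CPM in PIP2-1 KO leaves and 1423 and 1407 CPM in PIP2-1 WT leaves. PIP2-7 KO and PIP2-1 KO held the 4 lowest libraries. It fell by 0.13 in PIP2-7 KO and by 0.41 in PIP2-1 KO on the log2 scale against the own WT, and by 0.36 and 0.18 against the other WT pair. OsHsp71.1 and HSP70 (Os03g0277300), neighbours on chromosome 3, were both higher in PIP2-7 KO and lower in PIP2-1 KO than in the own WT. A read that fits both genes was counted at each, so they need not be independent measurements. OsHsp71.1 had 259.8 and 245 CPM in PIP2-7 OE leaves, 409 and 391 CPM in PIP2-7 KO leaves and 277 and 272 CPM in PIP2-7 WT leaves, and 452 and 445 CPM in PIP2-1 OE leaves, 262 and 283 CPM in PIP2-1 KO leaves and 497 and 469 CPM in PIP2-1 WT leaves. Its log2 change was 0.54 in PIP2-7 KO and -0.85 in PIP2-1 KO, but PIP2-7 WT was lower than PIP2-1 WT by -0.83, and against the other WT pair PIP2-7 KO was lower (-0.29) and PIP2-1 KO was not called. HSP70 (Os03g0277300) had 27.5 and 27.5 CPM in PIP2-7 OE leaves, 40.7 and 41.3 CPM in PIP2-7 KO leaves and 30.1 and 27.6 CPM in PIP2-7 WT leaves, and 49.9 and 49.9 CPM in PIP2-1 OE leaves, 24.2 and 33.8 CPM in PIP2-1 KO leaves and 64.5 and 48.5 CPM in PIP2-1 WT leaves. Its log2 change was 0.51 in PIP2-7 KO and -0.98 in PIP2-1 KO, and neither KO line was called against the other WT pair. The fall in PIP2-1 KO was lost without a filter on low counts and without PIP2-1 KO replicate 1 (-0.73) or PIP2-1 WT replicate 1 (-0.77).

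The remaining HSP70 genes named were as variable. OsHSP70 (Os03g0821100) had 157 and 159.8 CPM in PIP2-7 OE leaves, 282 and 282 CPM in PIP2-7 KO leaves and 233 and 228 CPM in PIP2-7 WT leaves. It rose by 0.29 in PIP2-7 KO, and by 0.72 against PIP2-1 WT, at 168 and 171 CPM. In PIP2-7 OE it fell by 0.53 on the log2 scale against PIP2-7 WT. OsctHSP70-1 had 53 and 61.9 CPM in PIP2-1 KO leaves, against 115 and 106 CPM in PIP2-1 WT and 60.0 and 65 CPM in PIP2-7 WT leaves, a log2 change of -0.97 against PIP2-1 WT; it was not called against PIP2-7 WT. OsHSP70 (Os01g0721000) was lower in PIP2-1 OE and PIP2-1 KO by -0.72 and -0.92 than in PIP2-1 WT, and neither was called against PIP2-7 WT.

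OsHsp70CP1 of the chloroplast and OsHsp74.8 had their highest levels in PIP2-7 WT and PIP2-1 KO. OsHsp70CP1 (chromosome 5, 13623356 to 13627054) had 211 and 220.0 CPM in PIP2-7 OE leaves, 250.2 and 259.6 CPM in PIP2-7 KO leaves and 487 and 477 CPM in PIP2-7 WT leaves. In the PIP2-1 experiment it had 370.1 and 366 CPM in PIP2-1 OE leaves, 456 and 456 CPM in PIP2-1 KO leaves and 241 and 249.7 CPM in PIP2-1 WT leaves. Its log2 change was -1.15 ± 0.0296 (SE, edgeR adjusted p = 5.31e-33) in PIP2-7 OE and -0.92 ± 0.0293 (SE, edgeR adjusted p = 2.32e-29) in PIP2-7 KO. It was 0.58 ± 0.0358 (SE, edgeR adjusted p = 5.44e-16) in PIP2-1 OE and 0.87 ± 0.036 (SE, edgeR adjusted p = 1.22e-21) in PIP2-1 KO. PIP2-7 WT exceeded PIP2-1 WT by 0.95, PIP2-1 OE turned to -0.38 against PIP2-7 WT and PIP2-1 KO to -0.08, the last lost with RLE scaling, without a filter, in DESeq2 and without PIP2-1 KO replicate 1 (-0.07), PIP2-7 WT replicate 1 (-0.07) or PIP2-7 WT replicate 2 (-0.09). PIP2-7 OE stayed lower than PIP2-1 WT, by -0.17, and PIP2-7 KO was not called against PIP2-1 WT. The leaf marker sum was likewise highest in PIP2-1 KO and PIP2-7 WT and lowest in PIP2-7 OE; its part in the level of OsHsp70CP1 was not tested. OsHsp74.8 had 325 and 329 CPM in PIP2-7 OE leaves, 277 and 278 CPM in PIP2-7 KO leaves and 492 and 491 CPM in PIP2-7 WT leaves, and 361 and 359.7 CPM in PIP2-1 OE leaves, 446 and 445 CPM in PIP2-1 KO leaves and 293 and 294 CPM in PIP2-1 WT leaves. OsHsp58.7 rose by 1.02 in PIP2-1 KO, with 46.8 and 43.8 CPM, against 21.7 and 22.4 CPM in PIP2-1 WT, and by 0.37 against PIP2-7 WT. OsHSP50.2 was lower in PIP2-7 OE (-0.27) and PIP2-7 KO (-0.32) than in PIP2-7 WT, and neither was called against PIP2-1 WT.

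Setting OE directly against KO avoids the WT pair altogether. In PIP2-1, 24 of 47 members were higher in OE than in KO and 11 lower, beside 55.5% of all genes (28.7% higher, 26.8% lower). Of the factors 12 of 17 were higher and 1 lower (median log2 difference 0.61), and HSP90 had 4 of 5 higher. HSFB1 differed by 3.57 ± 0.18 (SE, edgeR adjusted p = 7.70e-19), HSFB2A by 1.56, HSFA2B by 1.48, HSFB2C by 1.08 and HSP101 by 1.06. The small HSPs went mostly the other way, with 3 of 12 higher and 6 lower. Oshsp17.9A differed by -2.52 ± 0.105 (SE, edgeR adjusted p = 2.59e-21), OsHsp17.3 by -1.69 and OsHSP18.0-CI by -1.57. Oshsp17.9B was an exception, at 1.02.

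In PIP2-7, 23 of 50 members were higher in OE than in KO and 13 lower, beside 58% of all genes (28.4% higher, 29.6% lower). The difference for OsHSP18.0-CIII was 2.29 ± 0.0851 (SE, edgeR adjusted p = 1.55e-26), and for OsHsp18.0 it was 2.34. HSFA2D and HSFA2E were higher in OE by 0.76 and 0.65. Lower in OE were OsHSP70 (Os03g0821100) by -0.82, Oshsp17.9B by -0.72, OsHSP82A by -0.71 and OsHsp71.1 by -0.65. HSFB1 and HSP101 were not called, with HSFB1 at 5.99 and 5.78 CPM in PIP2-7 OE and 7.42 and 6.38 CPM in PIP2-7 KO leaves.

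Against the other WT pair, tested over all 12 libraries, 18 of 50 members were higher and 16 lower in PIP2-7 OE than in PIP2-1 WT, beside 53.1% of all genes (27.1% higher, 26% lower). In PIP2-7 KO 11 were higher and 19 lower than in PIP2-1 WT, beside 48.2% (24.4% higher, 23.8% lower). In PIP2-1 OE 15 were higher and 16 lower than in PIP2-7 WT, beside 49.4% (25.2% higher, 24.1% lower). In PIP2-1 KO 7 were higher and 25 lower than in PIP2-7 WT, beside 46.3% (23% higher, 23.2% lower). The 11 in PIP2-7 KO became 6 in DESeq2, 5 without PIP2-1 WT replicate 2 and 7 without PIP2-7 KO replicate 2. The 7 in PIP2-1 KO became 3 in DESeq2 and 4 without PIP2-1 KO replicate 2 or either PIP2-7 WT library. PIP2-7 WT itself had 14 members higher and 15 lower than PIP2-1 WT, beside 28.1% and 28.5% of all genes. The change in PIP2-7 differed from the change in PIP2-1 for 37 of 50 members in the OE lines, beside 62.6% of all genes, and for 39 of 50 in the KO lines, beside 67.3%.

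How many members departed from both WT pairs in 1 direction was counted for each line. In PIP2-1 KO 21 of 47 members, 44.7%, were called in the same direction against both pairs, beside 28.9% of all genes. Of these 15 were lower, beside 14.6% of all genes, and 6 higher, beside 14.3%. In PIP2-7 OE they were 21 of 50, 42%, beside 35.4%, in PIP2-7 KO 18 of 50, 36%, beside 30%, and in PIP2-1 OE 8 of 47, 17%, beside 16.2%; the 8 became 5 without PIP2-1 WT replicate 2. The shares in these 3 lines lay near the background. Over all alternatives 14 of the 21 in PIP2-1 KO kept both calls, namely HSFB2A, HSFB2C, HSFC1A, HSFA2E, OsHsfA6a, Oshsp17.9B, OsHSP18.0-CIII, OsHSP82, OsHsp80.2, OsHsp90 (Os09g0482600) and HSP70 (Os11g0703900), which were lower, and Oshsp17.9A, OsHsp17.3 and OsHsp58.7, which were higher. The numbers that kept both calls were 9 of 21 in PIP2-7 OE, 12 of 18 in PIP2-7 KO and 4 of 8 in PIP2-1 OE. The 4 in PIP2-1 OE were HSFA2B and OsHSP82, higher, and Oshsp17.9A and OsHSP18.0-CIII, lower. By direction, 12 of the 21 in PIP2-7 OE were higher and 9 lower, beside 18.7% and 16.7% of all genes, and 7 of the 18 in PIP2-7 KO were higher and 11 lower, beside 15.4% and 14.6%. In PIP2-1 OE 6 of the 8 were higher and 2 lower, beside 9.27% and 6.95%. Members called in opposite directions against the WT pairs numbered 9 in PIP2-7 OE, 8 in PIP2-7 KO, 5 in PIP2-1 OE and 6 in PIP2-1 KO. Of all genes 8.01%, 8.02%, 12.2% and 7.44% did so in the same order.

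**Figure D5:**
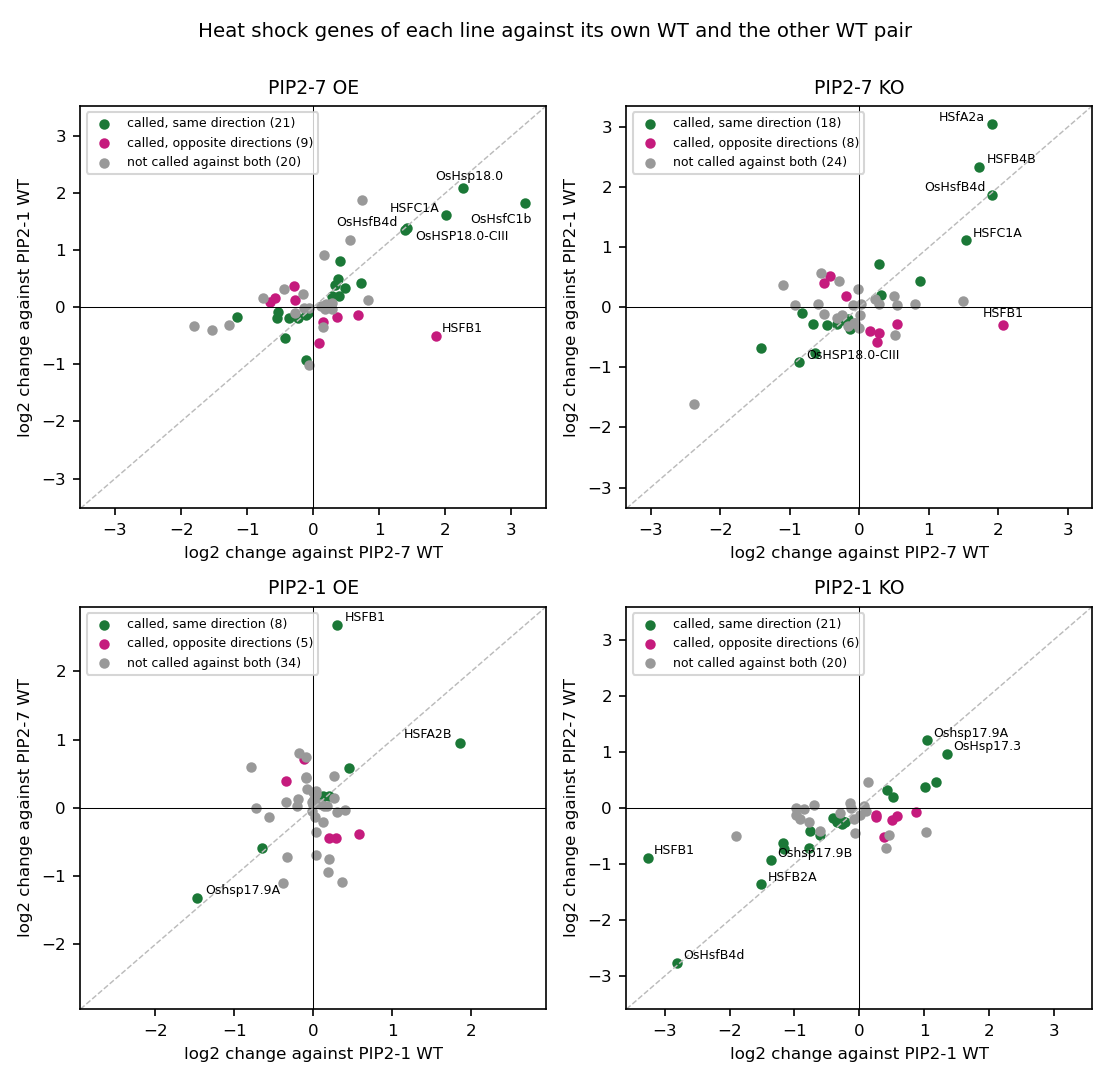
Log2 change of each tested heat shock member against the line's own WT (x axis) and against the other WT pair (y axis), 1 panel per line, with the diagonal dashed. Green points were called in the same direction against both pairs and purple points in opposite directions; in PIP2-1 KO 21 points are green and lie mostly in the lower left, while HSFB1 is purple in both PIP2-7 panels.

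Folding genes outside the HSP and HSF names were taken from a list of 164 genes, recognised by name, of which 153 were tested in the PIP2-7 experiment and 151 in the PIP2-1 experiment. They were called higher and lower in 45 and 59 cases in PIP2-7 OE, 52 and 51 in PIP2-7 KO, 52 and 28 in PIP2-1 OE and 58 and 52 in PIP2-1 KO. The called share of the list was 68% in PIP2-7 OE, beside 67.1% of all genes, and 67.3% in PIP2-7 KO, beside 63.4%. It was 53% in PIP2-1 OE, beside 44.1%, and 72.8% in PIP2-1 KO, beside 62.4%. Endoplasmic reticulum folding genes had 5 of 15 higher and 4 lower in PIP2-7 OE, 7 and 2 in PIP2-7 KO, 7 and 0 in PIP2-1 OE and 5 and 4 in PIP2-1 KO. OsBiP1, the HSP70 of that compartment, had log2 changes of -0.14 in PIP2-7 OE, 1.21 in PIP2-7 KO, 0.15 in PIP2-1 OE and -1.16 in PIP2-1 KO. OsCNX, calnexin, had 0.95 in PIP2-7 KO and -0.51 in PIP2-1 KO. The WT pairs differed by -0.36 for OsBiP1 and by -0.33 for OsCNX, PIP2-7 WT being lower. All 3 stress regulators on the list were higher in both PIP2-7 lines and lower in both PIP2-1 lines, each against the own WT, and all 3 were lower in PIP2-7 WT than in PIP2-1 WT. DREB2A, a drought and heat factor, had log2 changes of 1.08 in PIP2-7 OE, 0.61 in PIP2-7 KO, -0.31 in PIP2-1 OE and -1.28 in PIP2-1 KO. BZIP50, a factor of the unfolded protein response, had 1.09, 1.31, -0.27 and -1.23 in the same order.

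Chloroplast folding genes did not all move alike. ClpB-c and OsCPn60alpha1 were lower in both PIP2-7 lines and higher in both PIP2-1 lines, as OsHsp70CP1 was, each against the own WT. ClpB-c, the plastid disaggregase, had log2 changes of -1.63 in PIP2-7 OE, -1.38 in PIP2-7 KO, 0.64 in PIP2-1 OE and 0.66 in PIP2-1 KO. OsCPn60alpha1, a plastid chaperonin subunit, had -1.42, -1.12, 1.07 and 1.04 in the same order. PIP2-7 WT itself exceeded PIP2-1 WT by 1.02 for ClpB-c and by 1.29 for OsCPn60alpha1. The changes against the own WT cannot be told apart from this difference between the WT pairs. OsCPn60alpha2, another subunit, had 0.42 in PIP2-7 KO and was not called in the other 3 lines. Clp genes had 1 of 10 higher and 7 lower in PIP2-7 OE, 1 and 8 in PIP2-7 KO, 3 and 3 in PIP2-1 OE and 8 and 1 in PIP2-1 KO, and 7 were higher and 1 lower in PIP2-7 WT than in PIP2-1 WT. The called share of Clp genes was 80%, 90%, 60% and 90% in the 4 lines, beside 67.1%, 63.4%, 44.1% and 62.4% of all genes. Between the WT pairs 28.1% of all genes were higher and 28.5% lower in PIP2-7 WT. ClpD1 had the reverse signs of ClpB-c in the 4 lines, 0.91 in PIP2-7 OE, 1.93 in PIP2-7 KO, -0.65 in PIP2-1 OE and -1.92 in PIP2-1 KO. For ClpD1 the WT pairs differed by -2.30, PIP2-7 WT being lower. The 87 J protein genes tested had 30 higher and 28 lower in PIP2-7 OE, 29 and 25 in PIP2-7 KO, 23 and 20 in PIP2-1 OE and 26 and 34 in PIP2-1 KO. Their called shares, 66.7%, 62.1%, 49.4% and 69% in that order, lay near those of all genes. FKBP genes, prolyl isomerases that assist folding, had 4 of 26 higher and 15 lower in PIP2-7 OE and 7 and 13 in PIP2-7 KO, and 14 of 24 higher and 1 lower in PIP2-1 OE and 14 and 6 in PIP2-1 KO. Of 5 chaperonin genes 0 were higher and 4 lower in PIP2-7 OE, 2 and 3 in PIP2-7 KO, 3 and 0 in PIP2-1 OE and 3 and 1 in PIP2-1 KO. Of 7 co-chaperone genes 2 were higher and 1 lower in PIP2-7 OE, 3 and 0 in PIP2-7 KO, 2 and 1 in PIP2-1 OE and 2 and 3 in PIP2-1 KO. In that order of lines the called shares were 73.1%, 76.9%, 62.5% and 83.3% for FKBP genes. They were 80%, 100%, 60% and 80% for chaperonin genes and 42.9%, 42.9%, 42.9% and 71.4% for co-chaperone genes. Of all genes 67.1%, 63.4%, 44.1% and 62.4% were called.

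The gene whose level over the 12 libraries was most like that of OsHSP82, the most abundant member called in all 4 comparisons with the own WT, was Os05g0269500, which has no name in the files (Pearson r of log2(CPM + 1) 0.978), followed by prx19 (0.965), OsHsp90 (Os09g0482600; 0.965), OsSTN8 (0.952) and BOR2 (0.949). The points share libraries and depth, and related HSP90 genes can share reads. In the authors' deposited table, HSFB1 in PIP2-1 KO against WT had a log2 fold change of -2.94, HSFB2A -1.62 and Oshsp17.9A 1.23. For OsHSP18.0-CIII in PIP2-7 OE against WT the authors' deposited table gave 1.85, and for HSFA2B in PIP2-1 OE against WT 1.65. For several members the sources part. For HSP101 the authors' deposited table gave 0.15 in PIP2-1 OE, -0.13 in PIP2-7 OE and 0.05 in PIP2-7 KO, none marked significant there, and -1.33 in PIP2-1 KO. For OsHSP82 the authors' deposited table gave 0.0043 in PIP2-7 OE, -0.06 in PIP2-7 KO, 0.18 in PIP2-1 OE and -0.21 in PIP2-1 KO, none marked significant. In the authors' deposited table OsHsp90 (Os09g0482600) had 0.26 in PIP2-7 OE and HSP70 (Os11g0703900) 0.14 in PIP2-7 KO, signs opposite to those of the edgeR values above and not marked significant. For HSP70 (Os03g0277300) the authors' deposited values gave -2.43 in PIP2-7 KO against PIP2-7 OE, marked significant. The CPM above had the opposite direction. The authors listed no test of this gene in either KO line against WT. For OsHsp18.0 in PIP2-7 OE against WT the deposited value was 0.36, not marked significant, well below the edgeR value above. Oshsp16.9A and Oshsp16.9B had deposited values of 0.42 and 1.05 in PIP2-7 KO against WT, not marked significant, although their CPM was highest in PIP2-7 WT.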

How the data were processed

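RNA was sequenced from leaves in 12 libraries, 2 in each of 6 groups named by the sample titles. Per the file headers, the deposited raw counts per gene were made with featureCounts 1.4.0 on IRGSP-1.0, with the annotation of Ensembl Plants release 52. Also per the file headers, counting was on the reverse strand, a read with several alignments counted at each of them, and a read overlapping several genes was dropped. The other deposited column used is the summed exon length of each gene, per the file headers, which gave levels per kb. The submitters' processing notes name Trim Galore, HISAT2 and Cufflinks with no version. The deposited comparison tables hold the authors' log2 fold changes, p-values and q-values from Cuffdiff 2.2.1, per the submitters' processing notes. They served for gene names and for values credited to them, and their 4 columns of FPKM per group were not used.

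The analysis ran in R 4.3.3 with edgeR 4.0.16: filterByExpr, TMM scaling, glmQLFit with robust estimation and glmQLFTest, p-values being adjusted by Benjamini-Hochberg across every gene in the fit, with 0.05 as threshold. Comparisons within an experiment used its 6 libraries, those across experiments all 12. Levels are TMM-scaled CPM over the 12 libraries, with the SD over 2 libraries. Each SE is the absolute log2 change over the square root of F and is approximate. Replicates of a group differed by more than sampling noise (chi-square 2.50 to 7.69 for each degree of freedom), and none was merged. At the lowest total, 24636211 counts, 1 CPM stands for 24.6 counts before scaling. The members, classes, lists and tests were chosen with earlier results of these data known. Members named were the 3 most abundant of each class and the 5 largest rises and falls of each line above 5 CPM. Up to 4 members an experiment with OE and KO in opposite directions were also named, and others are marked in the text. Members called alike in all 4 lines against both WT pairs were to be named too, but no member met that rule. The pathway list came from name patterns, which kept 164 of 210 loose matches and left out 46 that held a pattern within another name. Gene descriptions and promoter sequences were not used here, so a planned motif count was not run. Alternatives were RLE scaling, the unfiltered table, DESeq2 1.42.0, the replicate number as a block, a fit of all 12 libraries and leaving out each library. The fits were also run on simulated counts with the same spread for every gene and changes in OE only. That setting is simpler than these data, so the run does not measure the error of the calls here.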

Additional observations from a re-analysis of the deposited data

Results flagged for a closer look

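The change of each member in PIP2-7 was set against its change in PIP2-1 by an interaction contrast over all 12 libraries, the log2 change in PIP2-7 minus that in PIP2-1, each against the own WT. It passed in edgeR for 37 of 50 members for the OE lines, beside 62.6% of all genes, and for 39 of 50 for the KO lines, beside 67.3%. Of the members named by rule, 16 were called in opposite directions in the OE lines and 17 in the KO lines. They were chosen for that reason, so their differences had to be large against their errors and are described with no test. The contrast holds the difference between the WT pairs, which cannot be told apart from it.

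For the KO lines the difference was 5.34 ± 0.253 (SE) for HSFB1, which rose in PIP2-7 KO and fell in PIP2-1 KO. It was 2.7 ± 0.242 (SE) for HSFC1A and 2.24 ± 0.067 (SE) for Oshsp17.9B. Other factors higher in PIP2-7 KO had differences of 1.34 for HSFB2C, 1.32 for HSFB2B and 0.44 for OsHsfA1. Chaperones with the same direction were OsHSP82A at 1.5, HSP70 (Os03g0277300) at 1.49, OsHsp71.1 at 1.39, OsctHSP70-1 at 1.23 and OsHSP70 (Os01g0721000) at 1.2. In the other direction, lower in PIP2-7 KO and higher in PIP2-1 KO, HSFA2D had -1.92 ± 0.054 (SE). The same held for OsHsp17.3 at -1.86, OsHsp70CP1 at -1.79, OsHsp58.7 at -1.61, OsHsp74.8 at -1.4 and HSFA2B at -0.89.

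For the OE lines the difference was 2.59 ± 0.221 (SE) for HSFC1A and 2.08 ± 0.135 (SE) for OsHSP18.0-CIII, both higher in PIP2-7 OE and lower in PIP2-1 OE. Oshsp17.9A at 1.97, OsHSP70 (Os01g0721000) at 1.57, OsHsfA1 at 0.52, Oshsp17.9B at 0.51 and OsHSP82A at 0.46 had that direction too. In the other direction HSFA2B had -2.6 ± 0.214 (SE) and OsHsp70CP1 -1.7 ± 0.046 (SE). Smaller differences of that sign were -0.91 for OsHSP70 (Os03g0821100), -0.85 for HSP101, -0.84 for OsHsp74.8 and -0.48 for OsHsp58.7. Among HSP90 genes of chromosome 9 the difference was -0.41 for OsHSP82, -0.23 for OsHsp90 (Os09g0482600) and -0.17 for OsHsp80.2. Groups of 2 libraries do not allow a test for a library that stands apart.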

How the results depend on the processing

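Of the recomputed counts of members called, 243 stayed within 1.5 times the reported count under RLE scaling, no filter, DESeq2, the replicate number as a block, the fit of 12 libraries and each library left out, and 9 did not; for counts within a class the numbers were 263 and 25. The members higher in PIP2-1 OE than in PIP2-1 WT, 11 as reported, numbered 6 to 9 with a library left out. Those higher in PIP2-1 KO than in PIP2-7 WT, 7 as reported, numbered 3 in DESeq2 and 4 to 5 with a library left out. Those higher in PIP2-7 KO than in PIP2-1 WT, 11 as reported, numbered 6 in DESeq2 and 5 to 11 with a library left out. The members called in the same direction against both WT pairs in PIP2-1 OE, 8 as reported, numbered 5 to 8; recomputing the counts against both pairs, the class counts and the changes of members named outside the rule was chosen after seeing the data. The cause of these shifts was not tested. Of the single log2 changes recomputed, 2609 kept direction and call, 212 kept their direction and lost the call, 147 of them with a library left out and 46 in DESeq2, and 1 turned, that of OsHSP40 in PIP2-7 KO, at -0.028 without PIP2-7 KO replicate 1 and 0.079 without PIP2-7 KO replicate 2.

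Libraries with the same replicate number did not deviate together (correlations of -0.024 to 0.024 over 15 pairs of groups), so the numbers were not taken as pairs. With the replicate number as a block, the members called higher and lower were 21 and 18 in PIP2-7 OE, 19 and 21 in PIP2-7 KO, 11 and 8 in PIP2-1 OE and 13 and 23 in PIP2-1 KO, and no count moved by more than 1.5 times.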
